A study of Mus musculus with 6 samples.

Results

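The genes described here are 10 genes of hepcidin and iron handling: *Hamp*, *Hamp2*, *Bmp6*, *Tfr2*, *Tfrc*, *Trf*, *Fth1*, *Ftl1*, *Slc40a1* and *Hpx*. They were taken by gene name from the deposited table of 31950 genes, and each name matched a single row. The livers came from C57BL/6 mice with a labelled age of 8 weeks, 3 of WT genotype and 3 of *β-cateninΔ(ex3)/+* genotype. The mutant mice carry 1 allele of *Ctnnb1*, the β-catenin gene, without exon 3, the part that marks the protein for destruction. The study deleted the allele in liver by more than 1 route. An albumin-driven Cre without induction led to early death of the mice. A Cre adenovirus left a mosaic of deleted and intact cells. A further route was a tamoxifen-induced Cre driven by the albumin promoter. The study used the name *β-cateninΔ(ex3)/+* for livers of the tamoxifen model, and its RNA-seq methods name no Cre. The values are FPKM, fragment counts scaled by transcript length and library size, from polyA RNA of whole liver, so fewer cells of a type and less RNA per cell cannot be told apart. All 10 genes had a mean of at least 0.5 FPKM over the 6 livers and were tested.

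Hepcidin is a peptide hormone made by hepatocytes. It binds ferroportin, the only known cellular iron exporter, and leads to its degradation, so that less iron leaves macrophages, gut cells and hepatocytes. Its gene is switched on by bone morphogenetic proteins (BMP) from liver endothelial cells through SMAD proteins and a coreceptor, hemojuvelin, and by interleukin 6 through STAT3. Inside cells, iron regulatory proteins bind hairpins in mRNA called iron-responsive elements. In a 3′ UTR the bound hairpin protects the mRNA from decay, and in a 5′ UTR it blocks translation.

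The elements found in the 10 genes are shown because they separate the genes whose mRNA level is itself under this control from those whose translation is. The main transcript of each gene in GENCODE M21 (GRCm38) was searched for the loop CAGTGN flanked by 5 paired bases on each side and an unpaired C. Of the 10 genes, 4 held such an element, each in a UTR. Over all protein-coding transcripts, 565 of 58797 (1.0%) held one. That share counts every isoform and matches in the coding part too, so it is not measured in the same way. *Tfrc*, the transferrin receptor, held 4 elements, all in its 3′ UTR, and *Fth1*, *Ftl1* and *Slc40a1* each held 1 in the 5′ UTR. Each is given as 30 bases on the strand of its gene, with the loop in capitals.
Tfrc 3′ UTR, chr16:32631219-32631248 (+): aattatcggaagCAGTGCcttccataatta
Tfrc 3′ UTR, chr16:32631598-32631627 (+): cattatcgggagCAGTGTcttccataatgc
Tfrc 3′ UTR, chr16:32631663-32631692 (+): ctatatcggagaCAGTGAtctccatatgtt
Tfrc 3′ UTR, chr16:32631710-32631739 (+): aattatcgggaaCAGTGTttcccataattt
Fth1 5′ UTR, chr19:9982732-9982761 (+): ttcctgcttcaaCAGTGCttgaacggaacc
Ftl1 5′ UTR, chr7:45459778-45459807 (-): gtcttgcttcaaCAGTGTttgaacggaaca
Slc40a1 5′ UTR, chr1:45925464-45925493 (-): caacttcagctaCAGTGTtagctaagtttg

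*Hamp* and *Hamp2* are neighbouring copies of the hepcidin gene on the minus strand of chromosome 7. Their transcripts were identical at 388 of 410 aligned bases (94.6%), their coding parts at 93.6% and their RefSeq promoters, from 250 bases before to 50 bases after the transcript start, at 92.9%. The stretch from -130 to -71, counted from the transcript start, is shown for both, because it holds the letters of the known BMP and STAT3 response elements of the hepcidin promoter, in capitals where they matched (build GRCm38.p6).
Hamp promoter, chr7:30944100-30944159 (-): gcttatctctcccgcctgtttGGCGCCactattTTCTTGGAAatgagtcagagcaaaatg
Hamp2 promoter, chr7:30924252-30924311 (-): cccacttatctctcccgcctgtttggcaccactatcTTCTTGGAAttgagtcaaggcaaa
The BMP element GGCGCC lay at -109 to -104 in *Hamp*, and the aligned letters of *Hamp2* differed by the substitution G4A, counted from the 5′ end of the element. The STAT motif TTCNNNGAA was present in both, at -97 to -89 in *Hamp* and at -94 to -86 in *Hamp2*, and did not overlap the BMP element. Both motifs read the same on either strand. Over 32851 RefSeq promoters, 11.9% held GGCGCC and 8.3% held TTCNNNGAA. A promoter was listed for 8 of the 10 genes. Among them *Tfrc* also held GGCGCC, *Bmp6* and *Hpx* held the antioxidant response motif TGACNNNGC (12.4% of all promoters, both strands searched), and none held the TCF/LEF motif CTTTGAT (3.7% of all promoters, both strands searched). These matches describe letters in a window and not bound sites.

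The groups also differed in ways that the genotype label does not name. *Xist*, transcribed from the inactive X chromosome, had 20.3 to 22.2 FPKM in WT livers and at most 0.0146 FPKM in mutant livers, and the Y-linked gene *Eif2s3y* had at most 0.0169 FPKM in WT and 9.20 to 9.94 FPKM in mutant livers. Sex and genotype therefore cannot be told apart. The 6 markers of the young liver summed to 3825 to 3892 FPKM in WT and 4.28 to 4.69 FPKM in mutant livers, with *H19* at 2320 to 2374 FPKM in WT and at most 0.0480 FPKM in mutant livers and *Igf2* at 0 in every mutant liver, although the labels give 1 age. Of 6 hepatocyte markers 2 fell and 1 rose (summed level 69980 to 73250 FPKM in WT and 34580 to 34840 FPKM in mutant livers). The highest of them in every liver was *Alb*, at 39620 to 43340 FPKM in WT and 24720 to 25010 FPKM in mutant livers. Of 4 tested cholangiocyte markers 1, *Spp1*, fell (summed level of the list of 5, 39.6 to 43.1 FPKM in WT and 18.5 to 19.3 FPKM in mutant livers). Most of that sum was *Spp1* itself, at 34.8 to 38.3 FPKM in WT and 14.5 to 15.9 FPKM in mutant livers. *Epcam* was lower by less than 2-fold (log2 fold change -0.68). *Krt19* (-0.26) and *Sox9* (0.24) did not pass the test. Of 9 tested erythroid markers, 5 fell (summed level of the erythroid list 3310 to 3654 FPKM in WT and 1811 to 1873 FPKM in mutant livers). *Rhag*, too low to be tested, had 0.241 to 0.422 FPKM in WT and 0 in every mutant liver. Of 8 liver endothelial markers, 2 fell and 6 others were lower by less than 2-fold (94.6 to 97.2 against 62.3 to 64.2 FPKM), and of 6 stellate cell markers 5 fell (122.7 to 125.4 against 34.3 to 41.4 FPKM). Of 7 Kupffer cell markers, 4 rose and 1 (*Marco*) fell (205.7 to 211.1 against 473.1 to 485.1 FPKM). Of 8 acute phase genes, 5 rose (1117 to 1149 against 3459 to 3527 FPKM), and of 8 β-catenin targets 5 rose (126.6 to 130.7 against 1252 to 1274 FPKM). Like sex, the young liver markers separated the groups completely, so their part cannot be told apart from that of genotype. The part of sex, of the young liver markers and of each cell type in the results below was not tested.

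The comparison asked how iron handling genes differ between livers with an activated β-catenin allele and WT livers. In the mutant livers both hepcidin genes and the heme scavenger gene *Hpx* rose and the transferrin receptor gene *Tfrc* fell. *Hamp* moved most, from 1.83 ± 0.944 to 32.5 ± 3.92 FPKM (SD, n = 3). The ferritin genes and *Bmp6* were higher, and the transferrin gene *Trf* and the ferroportin gene *Slc40a1* lower, by less than 2-fold on the scale tested. *Tfr2* did not pass the test.

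A gene was said to have risen or fallen when its adjusted p in limma was under 0.05 and its change at least 2-fold, a log2 fold change of 1, on log2(FPKM + 1). This scale understates the change of genes with few FPKM. By this rule 3 of the 10 genes rose, against 8.17% of the 13243 genes tested, and 1 fell, against 4.52%. At an adjusted p under 0.05 and any fold, 6 were higher (37.4% of all genes tested) and 3 lower (19.6%). The FPKM of the 2 groups did not overlap for 9 genes, 6 of them higher in the mutant (43.0% of all genes tested) and 3 lower (23.0%). The median log2 fold change of the 10 genes was 0.58, and that of all genes tested was 0.14. Median-ratio scaling and quantile normalization moved the median of all genes by -0.14 and -0.16, and under both each of the 10 genes kept its direction. For 3 livers against 3, a single-gene exact permutation test (two-sided) cannot give a p below 0.1, which is its value for each of those 9 genes.

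**Figure D1:**
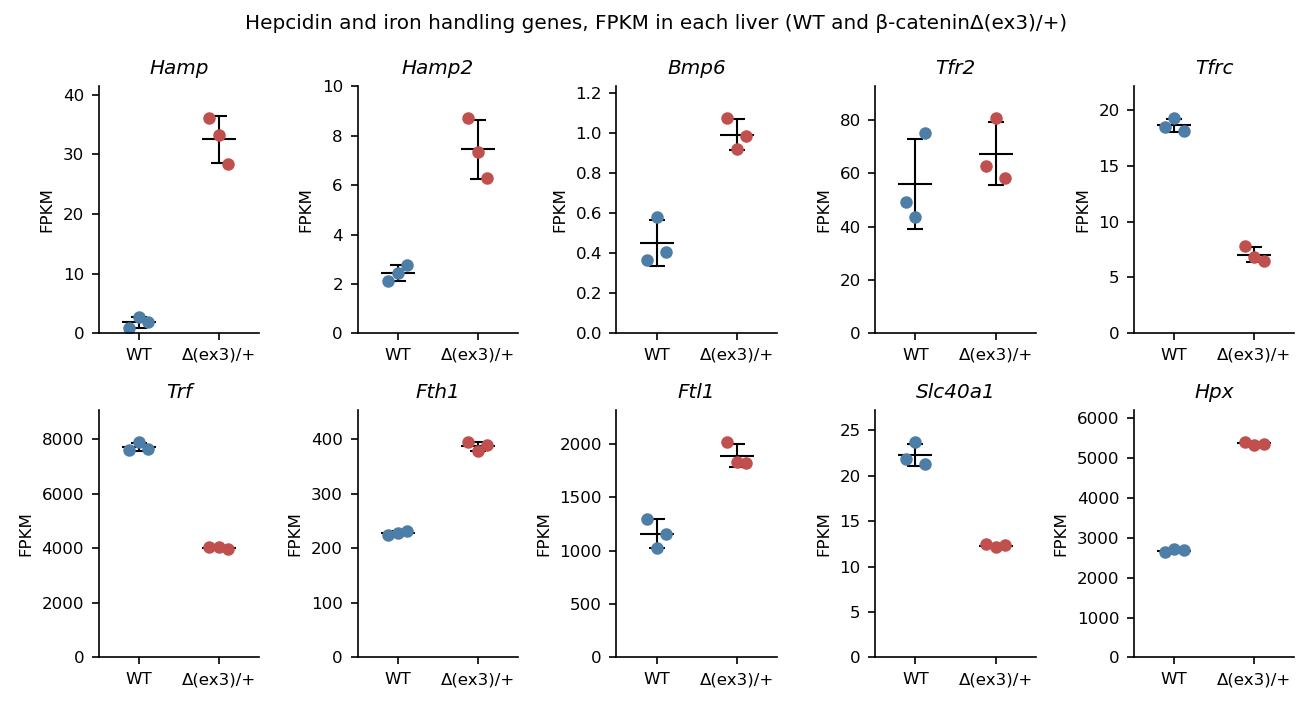
FPKM of the 10 genes in each liver (points), with the mean and the SD of the 3 livers per group (lines and bars); every vertical axis starts at 0 and has its own range. For *Tfr2* alone the 2 groups overlapped, with WT livers at 43.6 to 75.3 FPKM and mutant livers at 58.3 to 80.7 FPKM.

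**Figure D2:**
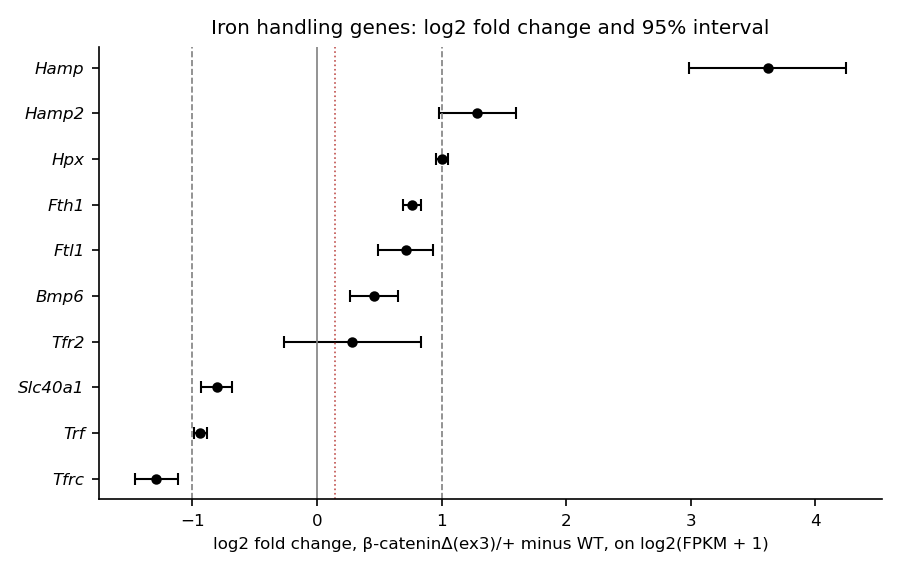
Log2 fold change of each gene, mutant minus WT, on log2(FPKM + 1), with its 95% interval from limma; dashed lines mark 2-fold changes and the red dotted line the median of all genes tested, 0.14. *Hamp* stood at 3.62 with an interval of 2.99 to 4.25, while the interval of *Tfr2* spanned 0.

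*Hamp* (ENSMUSG00000050440, chr7:30942368-30944032) encodes the hormone hepcidin. It had 0.860, 2.75 and 1.88 FPKM in the WT livers and 36.0, 33.2 and 28.3 FPKM in the mutant livers, given in replicate order here and for the other genes. The lowest mutant liver was far above the highest WT liver. The means differed 17.8-fold, and the log2 fold change was 3.62 (standard error 0.26, adjusted p = 7.65e-05). The WT values rest on few fragments: steps between the low values of the table put them at about 17, 56 and 38 counted units (a read or a read pair; which of these is not given), against 454 to 564 in the mutant livers. WT replicate 1, the lowest, widened the difference, and without it the log2 fold change was 3.34. Among all genes *Hamp* ranked 8272 by mean FPKM in WT and 1342 in mutant livers.

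*Hamp2* (ENSMUSG00000056978, chr7:30922372-30924181) encodes a second hepcidin peptide that mice have and whose role in iron control is less established. Its values were 2.11, 2.46 and 2.77 FPKM in WT and 8.71, 7.34 and 6.30 FPKM in mutant livers. The groups did not overlap, with a 3.04-fold difference of means and a log2 fold change of 1.29 (standard error 0.13, adjusted p = 3.03e-04). For both hepcidin genes mutant replicate 1 was the highest liver and mutant replicate 3 the lowest of its group.

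The balance between the 2 hepcidin genes differed as well. *Hamp2* made up 71.0%, 47.2% and 59.6% of their summed FPKM in WT and 19.5%, 18.1% and 18.2% in mutant livers. No mutant liver reached the range of the WT livers, and the difference of means was -40.7 percentage points (two-sided exact permutation p = 0.1, the smallest possible with n = 3 per group). In WT livers the levels of *Hamp* and *Hamp2* overlapped, whereas in mutant livers *Hamp* was above *Hamp2* in 3 of 3. Because fragments could be assigned to either copy, the summed level is also given: 2.97, 5.20 and 4.66 FPKM in WT and 44.7, 40.6 and 34.6 FPKM in mutant livers, with a log2 fold change of 2.97. The transcripts shared 0.0% of their runs of 100 bases. That share counts only exact matches of that length, so it cannot show that reads were assigned to the right copy. How far reads were split between the copies was not tested.

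*Bmp6* (ENSMUSG00000039004, chr13:38345107-38500302) encodes the BMP ligand by which liver endothelial cells signal iron load to hepatocytes. It was the lowest of the 10 genes, with 0.366, 0.584 and 0.408 FPKM in WT and 1.07, 0.919 and 0.986 FPKM in mutant livers. The groups did not overlap. The means differed 2.19-fold, but on the scale with 1 added to each FPKM the log2 fold change was 0.46 (standard error 0.08, adjusted p = 0.00362), under the 2-fold threshold; with 0.1 added it was 1.001. The endothelial markers were lower in the same mutant livers, all 8 of 8 at an adjusted p under 0.05.

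*Tfr2* (ENSMUSG00000029716, chr5:137569840-137587481) encodes transferrin receptor 2, a sensor of iron-loaded transferrin in hepatocytes. Its values were 49.3, 43.6 and 75.3 FPKM in WT and 62.9, 80.7 and 58.3 FPKM in mutant livers. Each group held 1 liver above the other livers of that group, WT replicate 3 and mutant replicate 2. The log2 fold change was 0.28 with a 95% interval from -0.27 to 0.84 (adjusted p = 0.321), an interval that holds changes of either sign. Without WT replicate 3 it was 0.51 (adjusted p = 0.0418).

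*Tfrc* (ENSMUSG00000022797, chr16:32608920-32632794), whose 4 iron-responsive elements are printed above, encodes the receptor that takes iron-loaded transferrin into cells. It had 18.5, 19.2 and 18.1 FPKM in WT and 7.78, 6.86 and 6.47 FPKM in mutant livers. Every mutant liver was below every WT liver, by 2.64-fold between the means. The log2 fold change was -1.29 (standard error 0.07, adjusted p = 2.46e-05). *Tfrc* is also abundant in developing red cells, and the erythroid markers were lower in the same mutant livers (5 of 9 tested fell, 8 of 9 lower at an adjusted p under 0.05).

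*Trf* (ENSMUSG00000032554, chr9:103204001-103230444) encodes transferrin, the iron carrier of plasma, which hepatocytes secrete. Its level was 7623, 7889 and 7645 FPKM in WT and 4042, 4056 and 3990 FPKM in mutant livers. The livers of a group lay close together and the groups far apart, with a 1.92-fold higher mean in WT. The log2 fold change was -0.94 (standard error 0.02, adjusted p = 5.89e-07), just under the 2-fold threshold. *Trf* ranked 7 among all genes in WT and 23 in mutant livers. Its transcript shares 77.3% of its runs of 100 bases with *Gm20425*, between which reads could be split, and no value of that gene was used here. Of the 6 hepatocyte markers *Ttr* and *Apoa1* fell (-1.42 and -2.01), *Alb* and *Fgb* were lower by less than 2-fold (-0.74 and -0.35), and *Hnf4a*, a transcription factor, rose (1.10). *Apob* had 25.9 to 27.7 FPKM in WT and 149, 45.4 and 43.3 FPKM in mutant livers and did not pass the test (1.27, adjusted p = 0.0625).

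*Fth1* and *Ftl1* encode the heavy and light chains of ferritin, the shell in which cells store iron. *Fth1* (ENSMUSG00000024661, chr19:9980598-9985092) had 225, 228 and 232 FPKM in WT and 395, 378 and 390 FPKM in mutant livers. Its groups did not overlap, and the log2 fold change was 0.76 (standard error 0.03, adjusted p = 5.72e-06). *Ftl1* (ENSMUSG00000050708, chr7:45457944-45459884) had 1294, 1025 and 1161 FPKM in WT and 2018, 1835 and 1828 FPKM in mutant livers. It was higher in 3 of 3 mutant livers, with a log2 fold change of 0.71 (standard error 0.09, adjusted p = 9.56e-04). Its transcript shares 60.4% of its runs of 100 bases with *Ftl1-ps1*, *Ftl2-ps*, *Gm15590* and *Gm22133*, between which reads could be split. With *Ftl1-ps1*, *Ftl2-ps* and *Gm15590* added, but not *Gm22133*, the log2 fold change of *Ftl1* was 0.74.

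The ratio of the 2 chains differed little between the groups. *Ftl1* stood at 5.75, 4.50 and 5.00 times the FPKM of *Fth1* in WT and at 5.11, 4.86 and 4.69 times in mutant livers. These values overlapped, and the difference of means was -0.20 (two-sided exact permutation p = 0.8, n = 3 per group). Both chains carry a 5′ UTR element, whose known action is on translation, which RNA-seq does not measure.

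*Slc40a1* (ENSMUSG00000025993, chr1:45908068-45926523) encodes ferroportin, the exporter to which hepcidin binds. It had 21.8, 23.7 and 21.3 FPKM in WT and 12.5, 12.1 and 12.3 FPKM in mutant livers. All mutant livers were below all WT livers. The log2 fold change was -0.80 (standard error 0.05, adjusted p = 4.70e-05), a 1.81-fold higher mean in WT. Ferroportin is abundant in Kupffer cells, of whose markers 6 of 7 were higher in the mutant livers at an adjusted p under 0.05.

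*Hpx* (ENSMUSG00000030895, chr7:105591613-105600137) encodes hemopexin, the plasma protein that binds free heme. It had 2640, 2717 and 2683 FPKM in WT and 5393, 5337 and 5360 FPKM in mutant livers. The spread within groups was small (SD 38.7 and 28.6 FPKM, n = 3 each) beside the 2.00-fold difference of the means. The log2 fold change was 1.001 (standard error 0.02, adjusted p = 3.08e-07), on the 2-fold threshold itself; without WT replicate 1 it was 0.99 and without mutant replicate 1 it was 0.997, both just below it.

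Ordered by FPKM, the WT livers ran from *Trf* through *Hpx*, *Ftl1*, *Fth1*, *Tfr2*, *Slc40a1*, *Tfrc*, *Hamp2* and *Hamp* to *Bmp6*. Only the neighbours *Hamp2* and *Hamp* overlapped between livers. In the mutant livers *Hpx* was first and *Trf* second, *Hamp* stood sixth behind *Tfr2*, and *Tfrc* came ninth. There the neighbours *Hamp2*, at 6.30 to 8.71 FPKM, and *Tfrc*, at 6.47 to 7.78 FPKM, overlapped.

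Genes that act on hepcidin transcription were followed in 2 wider lists. Of 20 tested genes of the BMP arm, none rose and 1, *Id1*, fell; at an adjusted p under 0.05 and any fold 6 were higher and 9 lower (6 and 10 at an unadjusted p under 0.05 in limma), and the median log2 fold change was -0.15. Here and for the lists that follow, the shares over all genes tested were 8.17% risen, 4.52% fallen, 37.4% higher and 19.6% lower at any fold, and counts near these shares are no result about a list. *Id1*, a direct SMAD target, had 15.6, 12.1 and 16.2 FPKM in WT and 6.36, 4.49 and 4.94 FPKM in mutant livers, so that its groups did not overlap (log2 fold change -1.32, standard error 0.15, adjusted p = 5.71e-04). The inhibitory SMAD genes *Smad6* and *Smad7*, also induced by BMP signals, were lower by less than 2-fold (log2 fold changes -0.45 and -0.44). The other SMAD targets of the list did not all share this direction: *Id2* was lower (-0.34), whereas *Atoh8* (0.44, adjusted p = 0.00466) and *Id3* (0.33, adjusted p = 0.0459) were higher. The call of *Id3* was fragile. It was lost under quantile normalization (0.04, adjusted p = 0.763) and median-ratio scaling (0.15, adjusted p = 0.298). It was also lost with no expression filter (adjusted p = 0.0789), with eBayes without a trend (0.0520), and without any single liver except mutant replicate 2 (0.0558 to 0.127). *Bmp2*, the other main endothelial ligand, was lower too (3.45, 3.53 and 3.72 FPKM in WT and 2.00, 2.18 and 2.81 FPKM in mutant livers, log2 fold change -0.46, adjusted p = 0.00847), in the direction opposite to *Bmp6*. On the hepatocyte side *Hjv*, the hemojuvelin gene, was higher (32.7, 33.9 and 31.3 against 54.5, 54.2 and 54.4 FPKM, log2 fold change 0.72, adjusted p = 2.79e-05), as was the hemochromatosis gene *Hfe* (log2 fold change 0.43, adjusted p = 0.00200), although not under quantile normalization (0.15, adjusted p = 0.0936). *Tmprss6*, a protease that cleaves hemojuvelin, had 68.9 to 104 FPKM in WT and 110 to 116 FPKM in mutant livers and did not pass the test (log2 fold change 0.31, adjusted p = 0.154; without WT replicate 2, 0.11 and 0.0416).

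Of 7 tested genes of the interleukin 6 arm, 1 rose (8.17% of all genes tested), 4 were higher at any fold (37.4%) and none was lower (19.6%; 4 and 0 also at an unadjusted p under 0.05 in limma), with a median log2 fold change of 0.33. *Socs3*, a STAT3 target that restrains the same receptor, rose from 1.73, 1.91 and 1.99 FPKM in WT to 6.32, 7.11 and 7.73 FPKM in mutant livers (log2 fold change 1.48, standard error 0.08, adjusted p = 2.53e-05). The interleukin 6 receptor gene *Il6ra* and *Stat3* were higher by less than 2-fold (0.59 and 0.44). *Il6* itself had at most 0.118 FPKM in any liver and was not tested. Acute phase genes moved beside this arm: *Saa1*, which codes for serum amyloid A, had 1.11 to 1.47 FPKM in WT and 255 to 264 FPKM in mutant livers, while *Lbp*, *Itih4* and *Apcs* were lower by less than 2-fold.

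**Figure D3:**
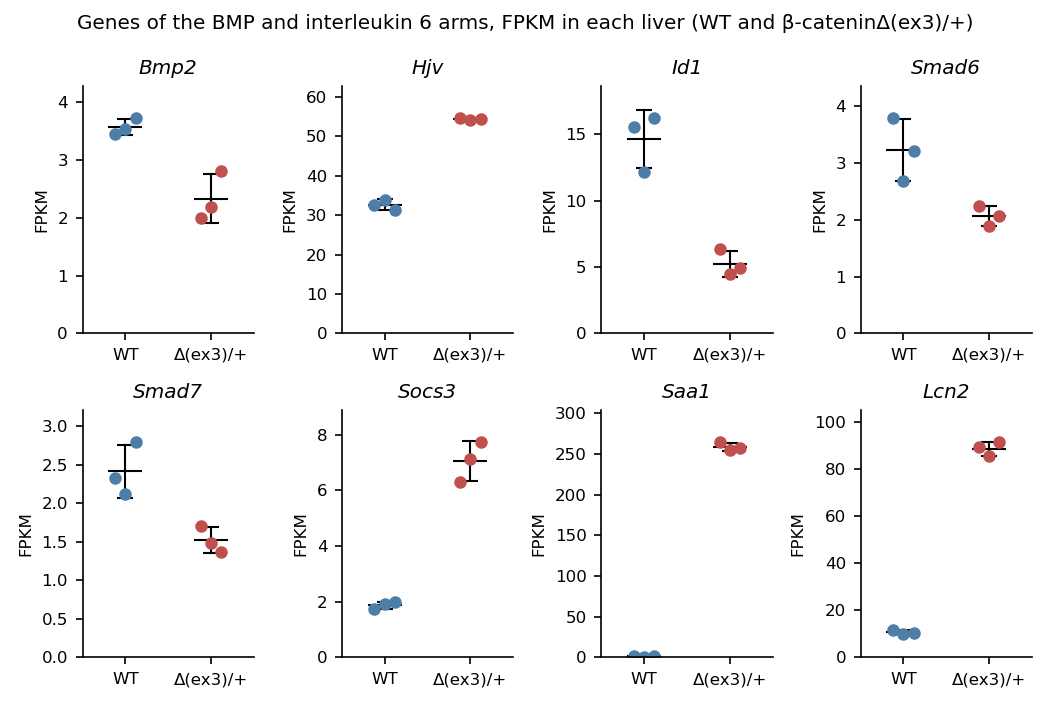
FPKM of 8 genes in each liver (points), with mean and SD per group. They are genes of the BMP arm, *Socs3* of the interleukin 6 arm, *Saa1* of the acute phase and *Lcn2* of iron and heme uptake. Every vertical axis starts at 0. *Bmp2*, *Id1*, *Smad6* and *Smad7* were lower in all mutant livers, and *Hjv*, *Socs3*, *Saa1* and *Lcn2* higher.

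Of 11 tested genes of iron and heme uptake, 4 rose (8.17% of all genes tested), 8 were higher at any fold (37.4%) and none was lower (19.6%; 8 and 0 also at an unadjusted p under 0.05 in limma), with a median log2 fold change of 0.86. *Lcn2*, which encodes a protein that binds iron carriers of bacteria, rose from 11.6, 9.92 and 10.3 FPKM to 89.0, 85.3 and 91.2 FPKM (log2 fold change 2.95, standard error 0.06, adjusted p = 5.04e-07). *Scara5*, a receptor for ferritin, had at most 0.0263 FPKM in WT and 2.52 to 2.59 FPKM in mutant livers (log2 fold change 1.82). *Steap4*, a metalloreductase, had 24.8 to 26.3 FPKM in WT and 59.0 to 62.7 FPKM in mutant livers (1.22). *Cd163*, the macrophage receptor for haptoglobin with hemoglobin, had 1.03 to 1.31 FPKM in WT and 3.12 to 3.69 FPKM in mutant livers (1.03), in livers where 4 of 7 Kupffer cell markers also rose. *Hp*, haptoglobin itself, was higher by less than 2-fold (2590, 2534 and 2606 against 4049, 5024 and 5064 FPKM, log2 fold change 0.86), as was *Slc11a2*, the importer DMT1 (0.75). The importer gene *Slc39a14* (-0.11) and the endosomal ferrireductase gene *Steap3* (-0.09) did not pass the test, but *Slc39a14* was lower under median-ratio scaling (-0.29, adjusted p = 0.00360) and quantile normalization (-0.38, adjusted p = 0.00134).

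Among genes of heme breakdown and export, 2 of 7 fell (4.52% of all genes tested) and none rose (8.17%); at any fold 2 were higher (37.4%) and 2 lower (19.6%), also at an unadjusted p under 0.05 in limma. *Hmox1*, heme oxygenase 1, which frees iron from heme, had 42.9, 42.7 and 40.6 FPKM in WT and 19.1, 18.4 and 21.6 FPKM in mutant livers (log2 fold change -1.06, standard error 0.07, adjusted p = 4.64e-05). *Flvcr2*, a transporter first described for heme, had 5.47, 6.09 and 6.14 FPKM in WT and 0.687, 0.844 and 0.871 FPKM in mutant livers (-1.94, standard error 0.07, adjusted p = 4.80e-06). Neither gene's groups overlapped, and both went down while *Hpx* and *Hp* were higher. Of 4 tested genes of storage, export and oxidation none passed both thresholds, and at any fold 1 was higher and 2 lower (37.4% and 19.6% of all genes tested), also at an unadjusted p under 0.05 in limma; *Cp*, the plasma ferroxidase ceruloplasmin, was lower at a log2 fold change of -0.17 (adjusted p = 0.0131).

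Of 8 genes of iron sensing none passed both thresholds, 3 were higher and 1 lower at any fold, near the 37.4% and 19.6% of all genes tested (4 and 1 at an unadjusted p under 0.05 in limma). *Aco1*, which encodes iron regulatory protein 1 and, with an iron-sulfur cluster, a cytosolic aconitase, had 22.7, 24.6 and 24.3 FPKM in WT and 43.6, 43.5 and 42.5 FPKM in mutant livers (log2 fold change 0.83, standard error 0.04, adjusted p = 1.94e-05). *Ireb2*, iron regulatory protein 2, and *Fbxl5*, which directs its degradation, did not pass (0.09 and 0.20, adjusted p = 0.306 and 0.0944). Over all 7 wider lists 71 of 80 genes were tested, 5 rose and 3 fell, and 30 were higher and 15 lower at any fold; these counts lie near the shares of all genes tested (8.17%, 4.52%, 37.4% and 19.6%), as does the median log2 fold change of 0.20 to that of all genes, 0.14.

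**Figure D4:**
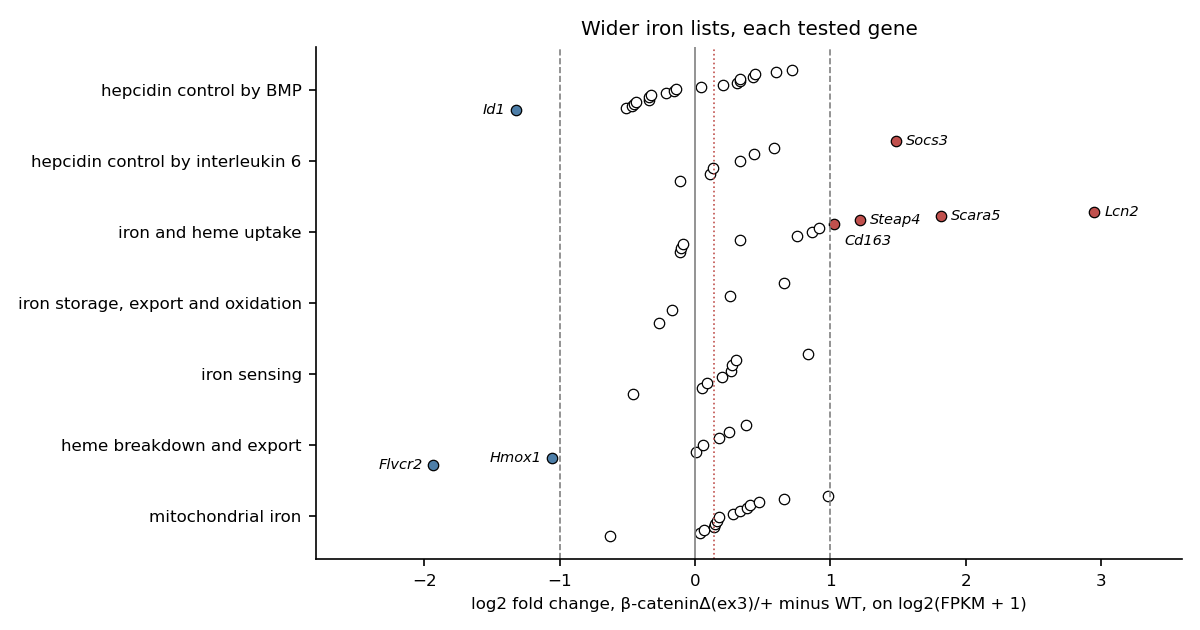
Log2 fold change of each tested gene of the 7 wider iron lists, mutant minus WT, on log2(FPKM + 1); filled points passed an adjusted p of 0.05 and 2-fold (dashed lines) and are named, and the red dotted line is the median of all genes tested. The 4 genes of iron and heme uptake and *Socs3* lie to the right, and *Id1*, *Hmox1* and *Flvcr2* to the left.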

How the data were processed

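PolyA RNA of 3 WT and 3 *β-cateninΔ(ex3)/+* livers was sequenced in read pairs with a strand-marking kit, and the authors deposited 1 table of FPKM, with a row per gene. The submitters' processing notes name cutadapt 1.9, HISAT2 2.0.4, StringTie 1.3.4d, DESeq2 and edgeR; filters, the strand setting of the counting and the genome build are not given in the sources used here. Of the 31950 identifiers, 31856 were in GENCODE M21 (GRCm38), 28911 with the same start and end. Every column name matched 1 liver (0 columns not used).

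The 13243 genes that averaged 0.5 FPKM or more over the livers were fitted on log2(FPKM + 1) by limma 3.58.1 in R 4.3.3 (lmFit, then eBayes with trend), with Benjamini-Hochberg adjustment over all genes tested; count models were not run on FPKM. The study's thresholds were kept (adjusted p under 0.05, at least 2-fold). Single values were compared by two-sided exact permutation tests (scipy 1.17.1, numpy 2.4.6, pandas 2.3.3, Python 3.11.15, figures with matplotlib 3.10.9). Nothing in the labels says how the livers of a group are related, so p-values measure the spread between these samples.

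Depth was estimated from steps between low values of single-exon genes. It came to 49.0 to 49.5 M counted units in WT and 33.9 to 39.1 M in mutant livers. At these depths 25.3% to 35.1% of the low values lay on steps. Each depth was the one with the highest such share, whereas 4% is expected by chance at a single fixed depth. The 4% is therefore not the chance level of these shares. Most low values lay off the steps, so FPKM give no counting intervals here. Within a group, livers correlated at 0.982 to 0.986 on the log2 scale. At most 2 genes had identical values above 0 in a pair, so no column was a copy of another. All 6 were treated as separate samples, as labelled. These checks cannot tell separate livers from repeat libraries of the same RNA. The 10 genes and all lists were chosen with earlier results of these data known. Named were all 10, each gene of the wider lists past both thresholds, further genes fixed by name, and markers that differed most; *Id2*, *Id3*, *Atoh8*, *Il6ra*, *Stat3* and *Il6* were added after their values were seen. Alternatives were a pseudocount of 0.1, other expression filters, quantile normalization, median-ratio scaling, a replicate block, eBayes without a trend, each liver left out, no fold threshold, and, chosen after seeing the data, sequence-sharing copies summed.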

Additional observations from a re-analysis of the deposited data

How the results depend on the processing

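Over 456 comparisons of single genes with an alternative, 441 kept their direction and whether they passed both thresholds together, as *Hamp*, *Hamp2*, *Tfrc*, *Fth1*, *Ftl1* and *Tfr2* did under 13 alternatives. *Hamp* ran from 3.34 to 4.21, and was at 2.97 with *Hamp2* added. The adjusted p alone crossed 0.05 in 14 comparisons: *Tfr2* (0.0418 without WT replicate 3), *Tmprss6* (0.0416 without WT replicate 2), *Hfe* (0.0936 under quantile normalization), *Slc39a14* (0.00360 and 0.00134 under median-ratio scaling and quantile normalization) and, in the others, *Id3* (up to 0.763). *Bmp6* could not be tested at a mean FPKM of at least 1. With a pseudocount of 0.1, 2705 genes passed both thresholds (1706 higher, 999 lower) and *Bmp6* reached 1.001. Median-ratio scaling moved the median of all genes tested by -0.14 and quantile normalization by -0.16, with 851 higher against 751 lower and 797 against 812 in place of 1082 against 598. Under median-ratio scaling 2 of the 10 genes fell, *Trf* (-1.13) joining *Tfrc*, and *Hpx* (0.81) and *Cd163* (0.90) no longer passed; under quantile normalization 3 fell, with *Trf* at -1.19 and *Slc40a1* at -1.09, and 3 genes of the wider lists rose, without *Steap4* (0.94) and *Cd163* (0.90). *Ireb2* turned to -0.067 and -0.096 under these scalings. Without a fold threshold 7551 genes passed (4952 higher, 2599 lower), 6 and 3 of the 10, and 30 and 15 of the wider lists. Leaving out 1 liver gave 1647 to 1707 genes, 2 or 3 of the 10 higher and 1 lower; *Cd163* was at 0.99 without WT replicate 1 and at 0.98 without mutant replicate 1. *Steap3* ran from -0.227 to 0.0378, the latter without mutant replicate 1, and the difference in the ratio of *Ftl1* to *Fth1* ran from -0.49 to 0.14, the latter without WT replicate 1. The replicate block gave 1673 genes and the counts of 3, 1, 5 and 3 in the 10 genes and wider lists; same-numbered livers did not deviate together (correlations -0.0054 to 0.0268), so the numbers were not taken as pairs. The causes of these shifts were not tested. Depth limits WT *Hamp* most, at about 17 to 56 counted units.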

Other observations

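Of 14 tested mitochondrial iron genes none passed both thresholds, 6 were higher and 1 lower at any fold, against 37.4% and 19.6% of all genes tested (7 and 1 at an unadjusted p under 0.05 in limma). *Abcb10*, a carrier of the inner membrane that supports heme synthesis in red cells, had 2.13, 2.15 and 2.43 FPKM in WT and 5.45, 5.78 and 4.97 FPKM in mutant livers (log2 fold change 0.98, adjusted p = 8.70e-05). *Iscu*, the scaffold on which iron-sulfur clusters are built, was higher (0.66), and *Lyrm4*, a partner of the desulfurase *Nfs1*, was the lower one (-0.63, adjusted p = 1.51e-04). These mitochondrial genes were named after their values were seen.

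Further genes of the wider lists differed by less than 2-fold. *Lrp1*, the receptor for heme bound to hemopexin, was higher (18.2 to 21.3 FPKM in WT and 37.9 to 40.1 FPKM in mutant livers, log2 fold change 0.92), and *Epas1*, which encodes HIF-2α, was lower (24.8 to 27.5 against 18.6 to 19.3 FPKM, -0.46). *Lrp1* and *Epas1* were also named after their values were seen.

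Among 1849 genes with a mean of at least 20 FPKM, the 5 whose log2(FPKM + 1) followed *Hamp* most closely over the 6 livers were *Ppp1ca* (Pearson's r = 0.99895), *F9* (0.99809), *Cyp3a11* (0.99805), *Tmem254b* (0.99791) and *Ei24* (0.99784). The 6 points fall into the 2 groups and share their libraries, so they are given as a description with no p. Pearson's r does not measure the size of a change. The log2 fold changes of these 5 genes ran from 0.226 (*Cyp3a11*) to 1.099 (*Tmem254b*), against 3.62 for *Hamp*.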
